A study of Mus musculus with 9 samples.

Results

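The 9 genes followed here encode secreted lipid carriers and proteins that move lipid out of or through glial cells, and they were measured across the cell classes of the adult mouse ventricular-subventricular zone (vSVZ) and olfactory system. Among the 32287 genes in the single-cell matrix these were the secreted carriers Apoe, Clu and Apod, the membrane transporters Abca1, Abca8a and Abcg1, the lipase Lpl and the intracellular carriers Fabp5 and Fabp7. They were picked by function. Cells were taken from male TiCY mice on a C57BL/6 background, in which tamoxifen-activated Cre under the Tlx (Nr2e1) promoter turned on eYFP from ROSA26, and all groups also carried a Fas allele (tm1Cgn). The 4 groups were WT young (16 weeks), WT old (80 weeks), KO young (16 weeks) and KO old (92 to 105 weeks), where KO mice lacked the interferon receptors Ifnar1 (tm1Agt) and Ifngr1 (tmAgt). Tamoxifen was given as 1 mg, 2 times a day for 3 days, with the chase lasting 6 weeks in WT young and 9 weeks in the other groups. Each group held 2 mice, which shared 1 reaction, so that group and reaction cannot be told apart. Genotype comparisons also carried a gap in age at tamoxifen, and in chase (young) or age (old). Ageing in WT, and so the difference in ageing between genotypes, carried the gap in chase as well.

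Cholesterol and phospholipid leave a glial cell through ATP-binding cassette transporters and are packed onto apolipoproteins, which carry them as lipoprotein particles to other cells. Astrocytes are the main source of apolipoprotein E and clusterin (apolipoprotein J) in brain, ensheathing glia surround the olfactory axons, and microglia take up and export the lipid of debris. Fatty acid-binding proteins move fatty acids within the cell, and lipoprotein lipase frees fatty acids from the particles. Apoe lies at chr7:19696109-19699188 and Clu at chr14:65968483-65981547 on GRCm38, and all 9 are annotated as protein-coding genes.

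Levels are given as CPM, the unique molecular identifiers (UMIs) of a gene per 1000000 UMIs of the summed cells of a class. After filtering, 18055 cells remained, in libraries of 27096070 to 78028524 UMIs. Hashtags assigned 5815 of them (32.2%) to 1 of the mice and to the vSVZ or to RoB, which pools the olfactory bulb, rostral migratory stream and striatum. This share was 21.5% in WT young and 20.5% in KO young, but 60.4% in WT old and 53.1% in KO old. By class it was 10.8% in neuroblast-like and 74.9% in ensheathing glia-like cells. The median was 5 to 7 hashtag counts a cell in the libraries. Comparisons of age therefore rest on unlike shares of the cells. Among cells before doublets were removed, 30 barcodes occurred in more than 1 library. The genotype was visible in the reads: Ifngr1 stood at 46.9 and 85.4 CPM in the WT libraries and at 2.88 and 4.40 in the KO libraries, and Ifnar1 at 21.2 and 28.6 against 8.08 and 6.56. Astroglia, the clusters carrying quiescent neural stem cell (NSC) and astrocyte markers, numbered 4815 cells, and all 9 of those markers were detected in each library. A further 1018 cells formed a cluster rich in Thbs4 and Ecel1, of which 50.1% carried an eYFP UMI. It raised 8 of the 9 astroglial markers but was kept apart and unnamed for its share of eYFP+ cells and because a marker of another class was among its leading genes. Ensheathing glia-like cells numbered 2024, with all 8 of their markers detected in every library.

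Apoe was highest in ensheathing glia-like cells, at 7510 and 6762 CPM in the young and old WT libraries and 5682 and 5954 in the young and old KO libraries. Astroglia followed at 4664, 4969, 4080 and 4949, below every ensheathing library. The Thbs4/Ecel1-rich cluster held 3482, 4403, 2870 and 3989, a range that overlapped that of astroglia. Outside these classes Apoe was lower, at a mean of 649 ± 370 (SD, n = 4 libraries) in activated NSC-like cells and between 23.5 and 43.7 in neuroblast-like cells. Microglia-like cells gave 253, 1064, 149 and 494, with 43 cells behind each old library.

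Clu, which encodes an extracellular chaperone of lipids and misfolded proteins, had a different distribution. Its level was 7287, 5919, 9240 and 6367 CPM in astroglia and 5289, 4902, 6783 and 5035 in the Thbs4/Ecel1-rich cluster, in the same order of libraries. These 2 ranges overlapped, and no other class came above 454. In ensheathing glia-like cells Clu was between 23.5 and 64.5, so that the class with the highest Apoe held little Clu. Free RNA, read from near-empty barcodes of 5 to under 100 UMIs, held 908 to 1430 CPM of Clu. Its profile in young KO rested on 217533 UMIs, 20 of them of C1qa, against 2625192 to 3739080 UMIs in the other libraries. The free RNA shares of young KO are therefore less certain. The share of free RNA in a class was set from the microglial C1q genes. With that share subtracted, Clu in ensheathing glia-like cells was between 17.7 and 30.9.

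Apod, a lipocalin that binds small lipids, was at 12173, 12715, 15897 and 15482 CPM in ensheathing glia-like cells. Oligodendrocyte-like cells, counted in both old libraries, held 5724 and 5772. Endothelial-like cells ranged widely, from 238 to 1467 over 3 libraries of 22 to 43 cells. Astroglia held 8.92, 28.3, 22.9 and 32.3, and the neuroblast-like cells, a neuronal class, held 6.75, 33.7, 34.0 and 25.8. In both classes young WT was the lowest library, as it was in free RNA, where Apod stood at 641 in young WT against 3716, 1342 and 3027 in the others. Once the free RNA share was subtracted, astroglial Apod was 0.0897 in young WT and 0 in the other libraries. In those other libraries the predicted share was above the measured level, and results under 0 were set to 0. How much Apod these astroglia held could therefore not be told.

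**Figure D1:**
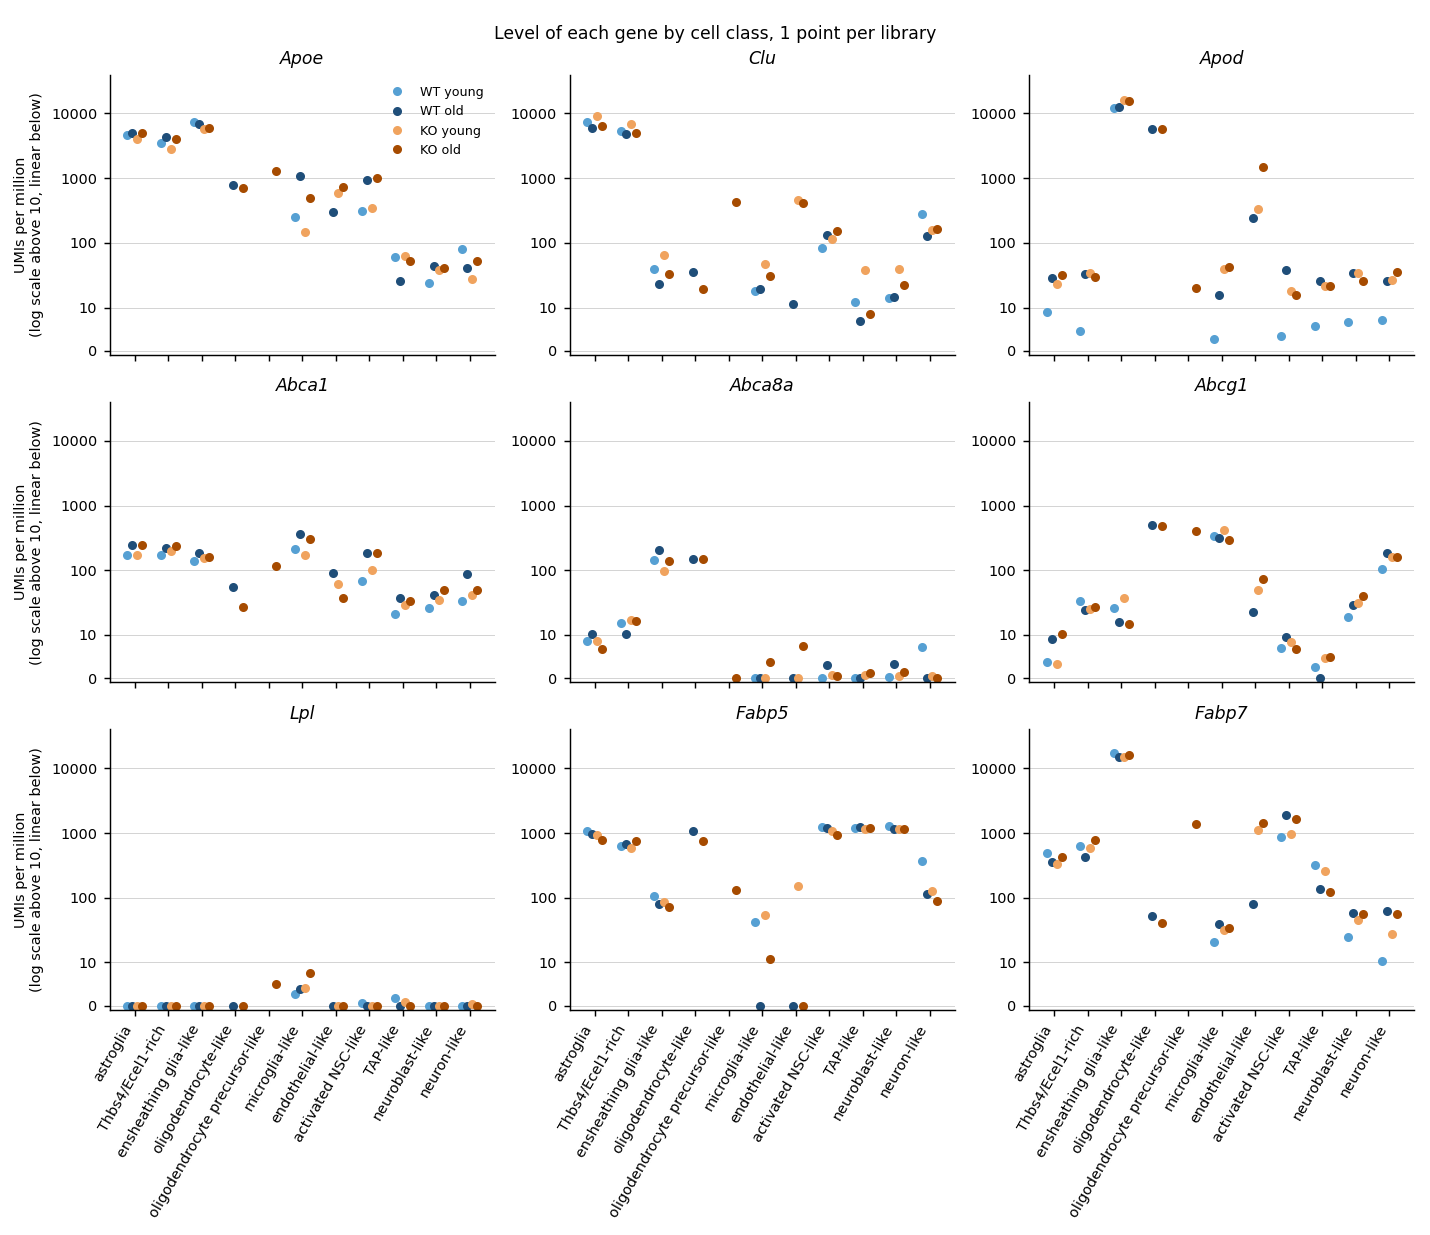
CPM (y axis, logarithmic above 10 and linear below) of the 9 genes in 11 cell classes (x axis), with 1 point per library of at least 20 cells and colours for the 4 groups. Apod and Fabp7 peak in ensheathing glia-like cells, Clu in astroglia and the Thbs4/Ecel1-rich cluster, and Lpl lies near 0 throughout.

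**Figure D2:**
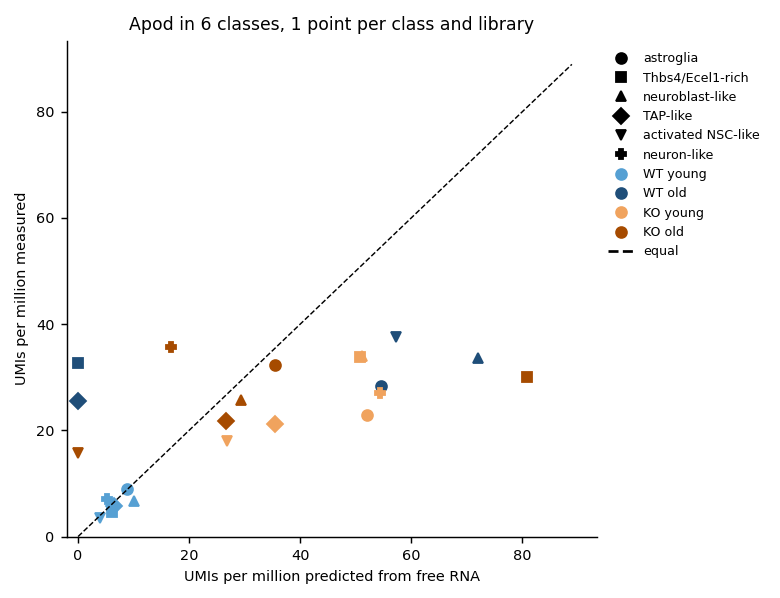
Apod measured in 6 classes against the level predicted from free RNA, both in CPM, with 1 point per class and library, shape for class, colour for group and a dashed line of equality. Of 20 points with a predicted level above 0, 17 lie under the line and 3 above it, which are astroglia of young WT (8.92 against 8.83) and neuron-like cells of young WT (7.10 against 5.15) and old KO (35.6 against 16.8). The 4 points at 0, of which those of TAP-like and neuron-like cells in old WT coincide, are sums in which no C1q UMI was counted, so that no share could be set.

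The transporters were lower and spread differently. Abca1, which loads lipid onto apolipoproteins, was at 214, 360, 171 and 303 CPM in microglia-like cells and at 172 to 248 in astroglia, ranges that overlapped each other and those of the Thbs4/Ecel1-rich cluster (173 to 240) and ensheathing glia-like cells (140 to 185). Abca8a, a related transporter, held 147, 204, 99.0 and 137 in ensheathing glia-like cells and 152 and 151 in oligodendrocyte-like cells of the old libraries, but 6.74 to 10.2 in astroglia. Abcg1, which exports sterols, was at a mean of 486 ± 8.98 in oligodendrocyte-like cells (SD, n = 2 libraries) and at 299 to 416 in microglia-like cells, and at 103 to 183 in neuron-like cells. Astroglia held 3.20 to 10.5 of Abcg1 and the Thbs4/Ecel1-rich cluster 24.1 to 33.7.

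Lpl was almost absent from these cells. No UMI was counted in the 4815 astroglia, the 2024 ensheathing glia-like cells, the Thbs4/Ecel1-rich cluster or the 6409 neuroblast-like cells, and none in near-empty barcodes. In astroglia a count of 0 allows up to 0.0867 CPM (3 counts of 34616608). Microglia-like cells gave 7 UMIs in 329 cells and transit-amplifying progenitor (TAP)-like cells 17 UMIs in 1113 cells. Lpl passed the filter on low counts in none of the fits below.

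The 2 fatty acid-binding proteins were distributed differently. Fabp7 was far above Fabp5 in ensheathing glia-like cells, and Fabp5 was above Fabp7 in astroglia as a whole. Microglia-like cells held little of either, at means of 26.8 (Fabp5) and 31.6 CPM (Fabp7). Fabp5 had means of 937 ± 125 CPM in astroglia, 1114 ± 130 in activated NSC-like, 1205 ± 41.6 in TAP-like and 1203 ± 67.9 in neuroblast-like cells (SD, n = 4 libraries), whose ranges overlapped from neighbour to neighbour. The Thbs4/Ecel1-rich cluster was lower, at 582 to 761, without overlap with astroglia (780 to 1084). Neuron-like cells held 89.5 to 365 and ensheathing glia-like cells 71.2 to 107. Fabp7, the brain-type family member, known as a marker of radial glia, was at 17315, 15029, 15029.5 and 16247 in ensheathing glia-like cells and at 492, 356, 335 and 429 in astroglia. Activated NSC-like cells lay between, at 873, 1916, 958 and 1646.

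Ensheathing glia-like cells fell into 2 clusters, which were made without the members. The share of all genes that differ between these clusters was not counted, so each member is only described. Cluster 3, led after Apod itself by Npy and Vtn, held 15149 to 19159.5 CPM of Apod, and cluster 8, led by Vtn, then Apod itself and Clca3a1, held 7040 to 9505. Apoe went the other way, with 4475 to 5941 in cluster 3 and 8164 to 9822 in cluster 8. Abca8a was at 33.7 to 75.5 in cluster 3 and at 255 to 372 in cluster 8, and Fabp7 at 12453 to 14908 and 18380 to 21838. For each of these genes the ranges of the clusters did not overlap. In each library Abca1 was also higher in cluster 8 (170 to 222 against 119 to 158). Abcg1 (22.1 to 47.5 against 0.920 to 14.8) and Clu (24.7 to 79.6 against 21.9 to 28.3) were higher in cluster 3 in each library. Fabp5 went both ways and Lpl was at 0 in both. Clusters come from the same cells, so these are descriptions without a test.

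The genes most like each member were found by the correlation of log2(CPM + 5) over 31 class-by-library sums of at least 50 cells, which share libraries and classes. Apoe was nearest to Srebf1 (r = 0.98), the sterol and fatty acid synthesis regulator, then Lrp4 and Cd63. Clu was nearest to Gabrb1 (r = 0.97) and then Mt3, and Apod to Erbb3 (r = 0.98) and Sox10, genes of myelinating and ensheathing glia. Abca1 was nearest to Tpcn1 (r = 0.94), Cyp4f13 and Swap70, Abca8a to Gal3st1 (r = 0.98), Gsn and Cobll1, and Abcg1 to Dusp7 (r = 0.92), Bin1 and Kcnk13. Fabp5 was nearest to Col9a3 (r = 0.92), Pantr1 and Mpzl1, and Fabp7 to Hs2st1 (r = 0.96), Gpc4 and Rassf10. For Lpl, with so few UMIs, Cgas, Cmtm8 and Lrrc3 came out nearest, on values close to 0. Between members, the highest correlation was that of Apod with Abca8a (r = 0.91).

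The comparisons of age and genotype used counts summed per mouse and were tested with edgeR's quasi-likelihood test, adjusted over all genes tested (Benjamini-Hochberg), with an adjusted p under 0.05 taken as a call. Log2 differences are given with their SE, and levels of single mice are CPM.

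In vSVZ astroglia, old KO mice had less Clu and Fabp5 and more Abca1 and Abcg1 than young KO mice. Old WT mice had less Clu than young WT mice. With a strict hashtag call, which kept 2909 of the 5815 hashtagged cells, none of these differences was called. Clu was at 9434 and 9634 in young KO and at 6648 and 6861 in old KO, and at 7266 and 8301 in young WT and 6529 and 6693 in old WT. The old mice lay below the young mice in both genotypes. The log2 difference was -0.51 ± 0.08 in KO (adjusted p = 0.000171 by edgeR) and -0.29 ± 0.08 in WT (adjusted p = 0.0255), and the difference between genotypes in this change was not called (-0.22, adjusted p = 0.461). Young KO also stood above young WT, by 0.30 ± 0.08, which missed the threshold (adjusted p = 0.0588). Without young WT mouse 2, old WT mouse 1 or old WT mouse 2, the change in WT was no longer called (adjusted p = 0.397, 0.174 and 0.105), nor was it with the Thbs4/Ecel1-rich cluster added (-0.06, adjusted p = 0.598). That cluster held less Clu than astroglia in each library. It had 68 and 134 vSVZ cells in the young WT mice and 32 and 34 in the old WT mice. Astroglia had 79 and 125 in the young and 115 and 251 in the old. The part of this makeup in the lost call was not tested.

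Abca1 was at 170 and 163 in young KO and at 262 and 263 in old KO, a rise of 0.64 ± 0.11 (adjusted p = 0.000495 by edgeR) that the test lost without young KO mouse 2 (0.61, adjusted p = 0.0540). In WT it was at 216 and 198 in the young and 262 and 254 in the old, also without overlap, but the difference of 0.27 ± 0.12 was not called (adjusted p = 0.234). Fabp5 was at 995 and 979 in young KO and at 836 and 768 in old KO, lower by 0.32 ± 0.08 on the log2 scale (adjusted p = 0.0344). That call was lost without either young KO mouse or without old KO mouse 2 (adjusted p = 0.275, 0.274 and 0.144). WT mice had 1101 and 1136 when young and 941 and 983 when old, with a difference of -0.27 ± 0.09 (adjusted p = 0.0671).

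Abcg1 rested on few molecules: 1 UMI in both young KO mice together against 40 in the old KO mice. The ratio of the summed levels was 27.9 (95% exact interval of counting error 4.74 to 1131), and the fitted log2 difference was 4.49 ± 0.94 (adjusted p = 0.00678 by edgeR). The call was lost without young KO mouse 2 (adjusted p = 0.263) or old KO mouse 2 (adjusted p = 0.0922).

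In the main fit, with all mice and the filter on low counts applied, Apoe was not called in vSVZ astroglia in any comparison. It was at 4284 and 4629 in young WT, 5195 and 5040 in old WT, 4004 and 4141 in young KO and 4759 and 5205 in old KO, so that old mice lay above young ones in each genotype, with log2 differences of 0.14 ± 0.08 (adjusted p = 0.340) and 0.27 ± 0.08 (adjusted p = 0.0642). In KO, Apoe was called without old KO mouse 1 (0.36, adjusted p = 0.00285), without the filter (0.27, adjusted p = 0.00498) and with the Thbs4/Ecel1-rich cluster added (0.42, adjusted p = 0.00028), and in WT with that cluster added (0.33, adjusted p = 0.0011). That cluster held less Apoe than astroglia in each library and, as in WT, was a larger part of the young cells. In KO it had 87 and 103 cells in the young mice and 53 and 48 in the old. Astroglia had 143 and 171 in the young and 272 and 241 in the old. The part of this makeup in the calls with the cluster added was not tested.

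Fabp7 differed by genotype in old vSVZ astroglia. Old KO mice had 368 and 301 against 192 and 230 in old WT, a difference of 0.69 ± 0.11 (adjusted p = 0.000762 by edgeR). Without old WT mouse 1 it was 0.58 and not called (adjusted p = 0.0875). Young mice had 238 and 234 (WT) and 244 and 259 (KO). The change with age was -0.19 ± 0.13 in WT and 0.39 ± 0.11 in KO (adjusted p = 0.465 and 0.0525), and the difference of these changes was 0.59 ± 0.17 (adjusted p = 0.162). Near-empty barcodes held 5588 CPM of Fabp7 in old WT and 4443 in old KO, and the part of free RNA in this difference was not tested.

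Apod also passed the test in WT ageing, from 6.74 and 12.9 in young WT mice to 31.4 and 29.1 in old WT (1.45 ± 0.40, adjusted p = 0.0329 by edgeR; 12 against 82 UMIs). Summed markers of ensheathing glia rose beside it, from 47.2 and 57.4 to 115 and 115 CPM, as did Apod in near-empty barcodes. With the free RNA share subtracted, the astroglial Apod of the whole libraries was 0.0897 in young WT and 0 in old WT. In old WT the predicted share was above the measured level, so the part of free RNA in this difference could not be told. The call was lost without any 1 of the 4 WT mice (adjusted p between 0.0897 and 0.218).

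Of the 9 members, 8 passed the filter here. In WT ageing 2 were called, 1 in each direction, against 4.18% of all 9396 genes tested, and in KO ageing 4 were called, 2 in each direction, against 1.71%. None was called for genotype in young mice (0.713% of all genes), where 3 had an unadjusted p under 0.05 and DESeq2 also called none. Only Fabp7 was called for genotype in old mice (0.117% of all genes). The difference in ageing between genotypes gave no call (0.341% of all genes), with 2 members at an unadjusted p under 0.05 and none called by DESeq2. The median log2 difference of the members tested was 0.04 in WT ageing and 0.33 in KO ageing, beside 0.02 and 0.00 over all genes.

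The makeup of the class moved with some of these differences. Cluster 7, led by Agt and Cldn10, made up 11.9% and 7.60% of vSVZ astroglia in the young KO mice and 18.4% and 36.9% in the old KO mice, against 12.2% and 15.9% in old WT. Fabp7 was at 431 to 518 CPM in cluster 7 over the libraries and at 158 to 244 in cluster 1. Cluster 7 held 6 and 16 Abcg1 UMIs of the old KO mice, against 3 and 4 in cluster 1 and 8 and 3 in cluster 5. The part of makeup in the differences was not tested. In cluster 1 alone, the largest of the class, Clu and Abca1 kept their calls for ageing in KO (-0.44, adjusted p = 0.0106, and 0.65, adjusted p = 0.0133). Fabp5 in KO ageing (-0.28, adjusted p = 0.366), Clu in WT ageing (-0.23, adjusted p = 0.230), Apod in WT ageing (1.23, adjusted p = 0.272) and Fabp7 in the old (0.59, adjusted p = 0.101) kept their direction and lost their calls in that smaller set of cells. For Fabp7 the old mice of the genotypes overlapped in cluster 1, at 282 and 179 in KO and 188 and 152 in WT. Abcg1 did not pass the filter there.

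**Figure D3:**
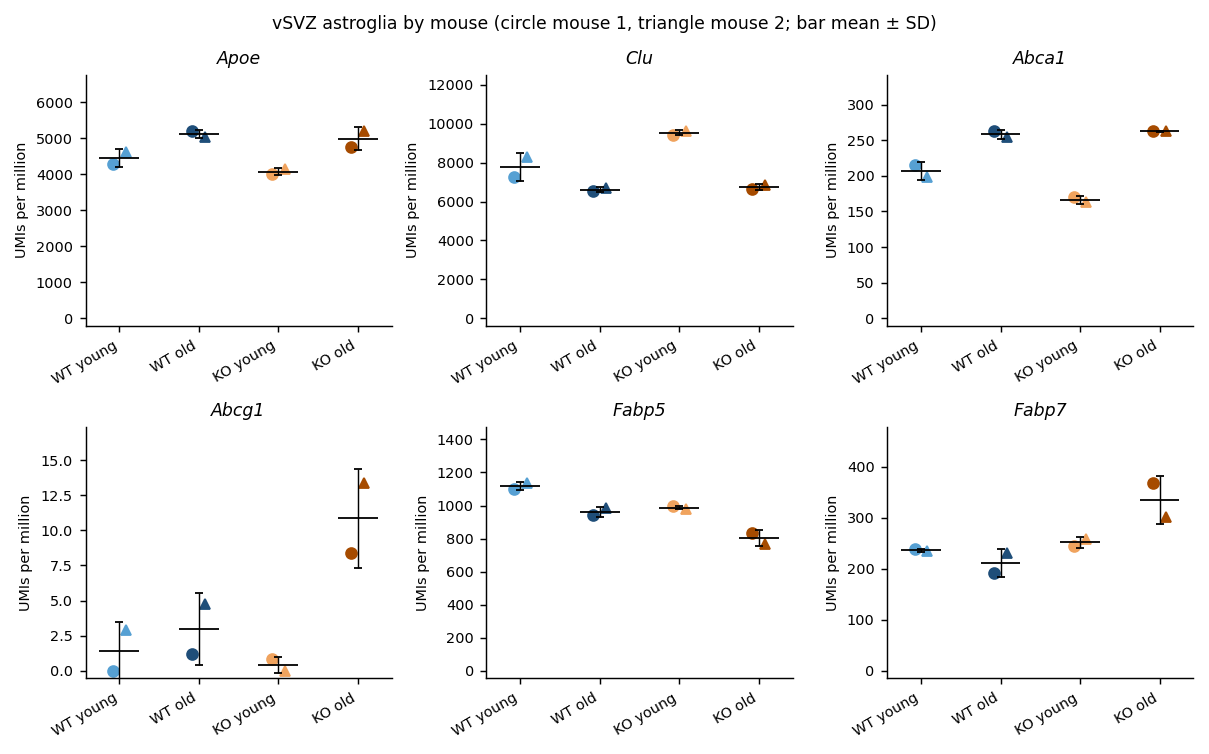
CPM (y axis) of 6 members in vSVZ astroglia of each mouse (circle mouse 1, triangle mouse 2) in the 4 groups, with the mean and SD of 2 mice. Clu is lower and Abca1 higher in the old mice of both genotypes, Fabp7 is highest in old KO, and Abcg1 rests on 1 to 40 UMIs a group, with its SD bars cut near 0.

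Of the other 48 genes of lipid transport, 28 were tested in vSVZ astroglia. In KO ageing 4 were called, 3 of which are described here. Apoc1, a small apolipoprotein of the same gene cluster as Apoe, rose from 17.9 ± 0.679 to 39.0 ± 5.65 CPM (mean ± SD, n = 2 mice; log2 1.09 ± 0.26, adjusted p = 0.0159 by edgeR). Npc1, which moves cholesterol out of lysosomes, rose from 31.4 ± 4.55 to 54.3 ± 1.25 (0.76 ± 0.21, adjusted p = 0.0466). Acsbg1, an acyl-CoA synthetase, fell from 656 ± 50.3 to 509 ± 13.1 (-0.38 ± 0.09, adjusted p = 0.0143). In WT ageing 1 was called. Apoa1, the main apolipoprotein of high-density particles, rose from 3.99 ± 2.47 to 18.02 ± 0.790 on 5 and 49 UMIs (1.95 ± 0.58, adjusted p = 0.0475). The genotype comparisons and the difference in ageing called none of the 28.

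In RoB astroglia, Fabp7 fell with age in WT mice and Clu was higher in young KO than in young WT mice. Fabp7 stood at 1546 and 1133 in young WT, 616 and 566 in old WT, 816 and 743 in young KO and 645 and 848 in old KO. Young WT mice, the only group with a chase of 6 weeks, lay above all other mice, and the KO groups overlapped each other. The change with age was -1.20 ± 0.14 in WT (adjusted p = 5.5e-08 by edgeR) and -0.06 ± 0.15 in KO (adjusted p = 0.978). The difference between these changes was 1.14 ± 0.20 and was called (adjusted p = 0.000846). Young KO was below young WT by 0.75 ± 0.15 on the log2 scale (adjusted p = 0.00275). Without young WT mouse 1 the genotype difference was -0.52 and the difference in ageing 0.91, and neither was called (adjusted p = 0.323 and 0.0538), whereas the fall in WT was (-0.96, adjusted p = 0.000635).

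The clusters of RoB astroglia differed in Fabp7, and their shares moved with it. Clusters 12 (led by Igfbp2) and 18 (led by Islr) made up 64.6% and 63.6% of RoB astroglia in young WT mice and between 43.3% and 51.6% in the other 6 mice. Within cluster 12, Fabp7 was at 2879 and 1636 in young WT, 1326 and 1068 in old WT, 1048 and 1147 in young KO and 990 and 1476 in old KO. A fit to cluster 12 alone, in which young KO was left with 1 mouse of at least 20 cells that was assumed to vary like the other groups, called the fall with age in WT (-0.91 ± 0.19, adjusted p = 0.0158) and the genotype difference in young (-1.09 ± 0.25, adjusted p = 0.0319). It did not call the difference in ageing (1.18 ± 0.31, adjusted p = 0.102). Within cluster 18, on 4 to 29 cells a mouse, Fabp7 was at 1331 and 1044 in young WT and 219 and 444 in old WT, and at 1044 and 1060 in young KO and 489 and 313 in old KO, so that the old lay below the young in both genotypes.

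**Figure D4:**
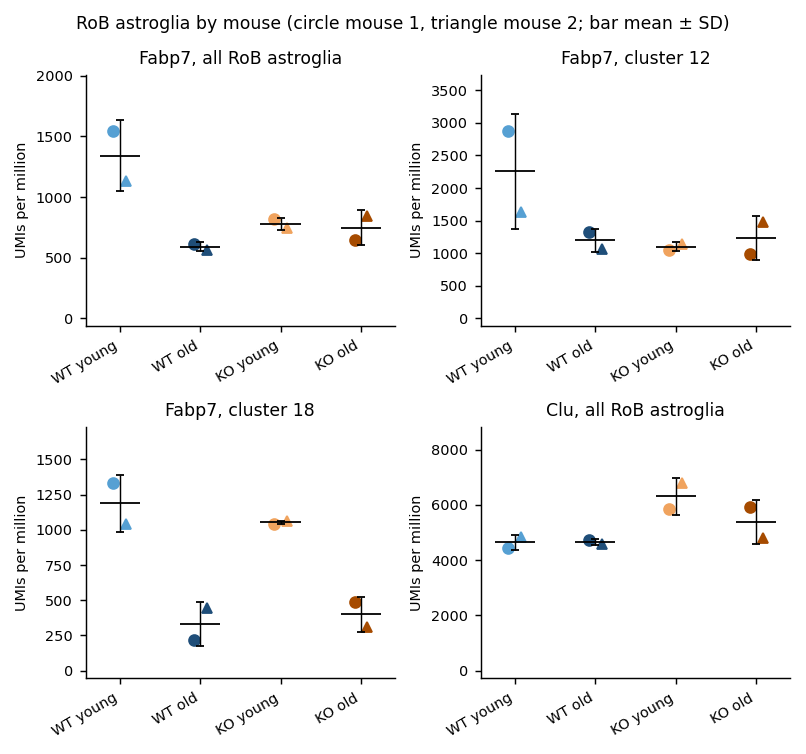
CPM (y axis) of Fabp7 in all RoB astroglia, in cluster 12 and in cluster 18, and of Clu in all RoB astroglia, for each mouse of the 4 groups with the mean and SD of 2 mice. Fabp7 is highest in the young WT mice over the whole class and in cluster 12, and is lower in the old of both genotypes in cluster 18.

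Clu in RoB astroglia was at 4441 and 4840 in young WT, 4747 and 4580 in old WT, 5848 and 6789 in young KO and 5933 and 4817 in old KO. The young KO mice lay above the young WT mice (0.48 ± 0.11, adjusted p = 0.0127 by edgeR), while no change with age was called. The genotype call was lost without young WT mouse 1 or young KO mouse 2 (adjusted p = 0.307 and 0.127). DESeq2 gave the same log2 difference with an adjusted p of 0.168. In all, 7 of the 9 members were tested. The call rates were 1 member in WT ageing (0.99% of all 6967 genes), 0 in KO ageing (0.172%), 2 for genotype in the young (0.703%), 0 for genotype in the old (0.0574%) and 1 for the difference in ageing (0.215%). In each comparison with 0 calls, 2 members had an unadjusted p under 0.05 and DESeq2 called none. None of the 21 other lipid transport genes tested was called in any of these 5 comparisons.

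Between tissues of the same mouse, astroglia of the vSVZ had more Clu, Fabp5 and Abca1 and less Fabp7 and Abcg1 than those of RoB. This comparison took both tissues from 1 reaction and kept the mouse as a block. The tissues were sorted through different gates, eYFP+ or GLAST+ in the vSVZ and eYFP+ or eYFP-/PSANCAM low in RoB. Tissue and gate therefore cannot be told apart. Clu was higher in the vSVZ in 8 of 8 mice (7671 ± 1281 against 5250 ± 837, SD, n = 8; log2 0.57 ± 0.05, adjusted p = 5.4e-12 by edgeR), and so was Fabp5 (967 ± 123 against 745 ± 92.2; 0.39 ± 0.06, adjusted p = 4e-06). Abca1 was higher in 7 of 8 (224 ± 42.8 against 184 ± 34.3; 0.32 ± 0.08, adjusted p = 0.0059). Fabp7 was lower in 8 of 8, between 192 and 368 in the vSVZ and between 566 and 1546 in RoB, without overlap (-1.61 ± 0.10, adjusted p = 5.02e-19). Abcg1 was lower in 8 of 8 as well, on 53 and 94 UMIs (-2.04 ± 0.36, adjusted p = 2.66e-05). Apoe was within the spread of the mice, at 4657 ± 475 and 4488 ± 448 (0.08 ± 0.05, adjusted p = 0.396).

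Of 7 members tested here, 5 were called (3 higher and 2 lower in the vSVZ), against 11% of all 7738 genes. Clusters 12 and 18 held 316 of the hashtagged RoB astroglia and 25 of those of the vSVZ. Fabp7 was at 731 to 1549 in cluster 12 over the libraries and at 158 to 518 in clusters 1, 5 and 7, while cluster 18 held 1065 and 1178 in the young WT and KO libraries and 346 and 343 in the old. Abcg1 was at 43.5 to 118 in cluster 18 and between 0 and 18.4 in the other 4 clusters. Within single clusters the differences were not uniform. In cluster 1 (4 to 32 RoB cells a mouse) the vSVZ was higher in 5 of 8 mice for Clu, 3 for Fabp5, 6 for Abca1 and 5 for Fabp7. In cluster 5 (2 to 11 RoB cells) these counts were 5, 4, 6 and 1, in cluster 7 (3 to 36 RoB cells) 8, 7, 3 and 4, and in cluster 12 (1 to 5 vSVZ cells) 8, 5, 5 and 0. With so few cells no fit was made within a cluster, and the part of cluster makeup in the differences between tissues was not tested. With mouse left out as a block, 4 of the 5 calls were kept, and Abca1 was lost (0.29, adjusted p = 0.112). Without old KO mouse 2, Abca1 was also lost (adjusted p = 0.0791) and Abcg1 did not pass the filter. Of 21 other lipid transport genes tested, 6 were called, 5 of which are given here. Abca5 (0.77 ± 0.12), Lrp8 (0.65 ± 0.17), an apolipoprotein E receptor, Soat1 (0.28 ± 0.07), which esterifies cholesterol, and the acyl-CoA synthetases Acsl6 (0.22 ± 0.06) and Acsl3 (0.19 ± 0.05) were higher in the vSVZ.

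**Figure D5:**
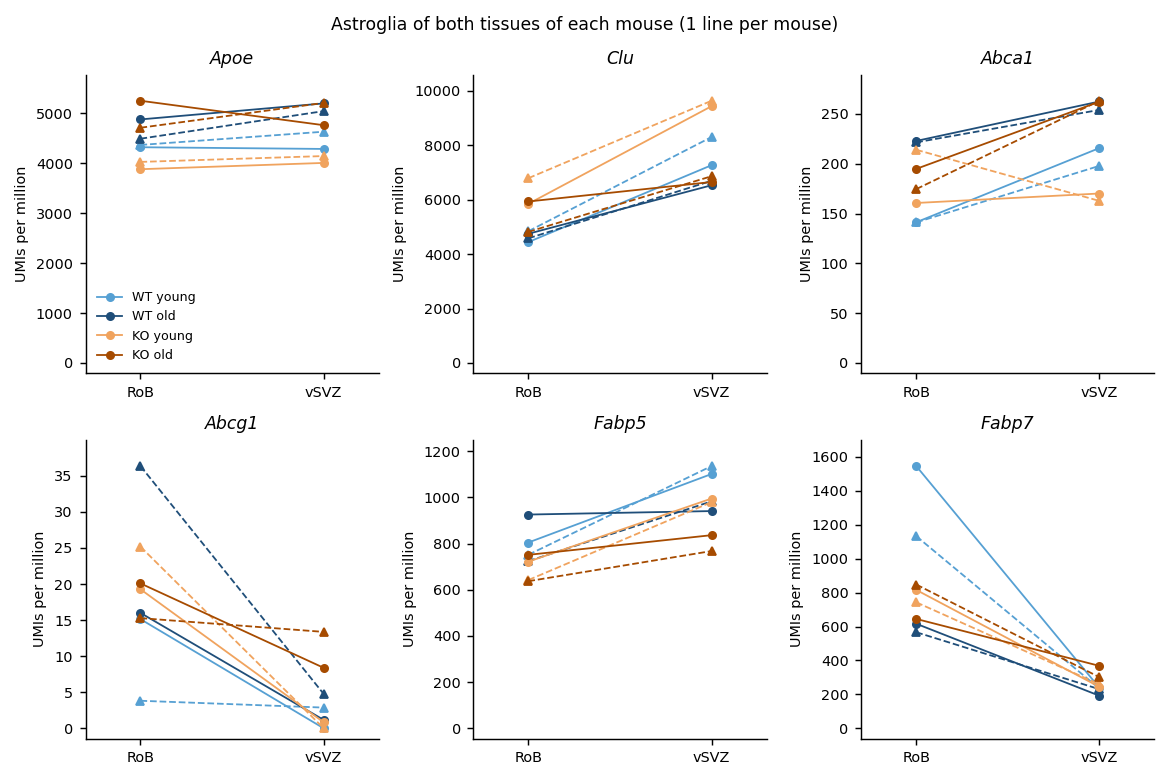
CPM (y axis) of 6 members in RoB and vSVZ astroglia, with 1 line per mouse (solid mouse 1, dashed mouse 2) coloured by group. All 8 lines rise for Clu and Fabp5 and fall for Fabp7 and Abcg1, and those for Apoe go both ways.

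In the Thbs4/Ecel1-rich cluster of the vSVZ, 7 members were tested. Apoe was at 3756 and 3401 in young WT, 4793 and 4250 in old WT, 2979 and 2900 in young KO and 3919 and 4043 in old KO, the old above the young in both genotypes, with differences of 0.38 ± 0.12 and 0.48 ± 0.12 that missed the threshold (adjusted p = 0.129 and 0.0537 by edgeR). Scaling by relative log expression put the difference in KO past it (0.49, adjusted p = 0.0488). Fabp7 was at 799 and 574 in old KO and 408 and 344 in old WT (0.89 ± 0.19, adjusted p = 0.0834). The single call was Apod for genotype in the young, on 4 UMIs in young WT and 65 in young KO, 52 of them in young KO mouse 2. It was lost without that mouse (adjusted p = 0.497), without either young WT mouse (adjusted p = 0.0699 and 0.0613) and in DESeq2 (adjusted p = 0.159). The free RNA share predicted for the young KO library was above its measured Apod, so how much these cells held could not be told. The calls were 0 of 7 in WT ageing (0.887% of all 6427 genes), 0 in KO ageing (0.482%), 1 for genotype in the young (0.342%), 0 for genotype in the old (0.0311%) and 0 for the difference in ageing (0.0311%). The comparisons with 0 calls had 3, 5, 2 and 2 members at an unadjusted p under 0.05, and DESeq2 called 0, 1 (Apoe), 0 and 0. None of 19 other lipid transport genes was called.

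In ensheathing glia-like cells, where Apoe, Apod and Fabp7 were most abundant, no member was called in any comparison. Apoe was at 7558 and 7735 in young WT, 6584 and 7111 in old WT, 5992 and 5620 in young KO and 6744 and 5553 in old KO. The young KO mice lay below the young WT mice (-0.37 ± 0.09, adjusted p = 0.106 by edgeR). Apod was at 12324 and 12518 in young WT, 12938 and 11940 in old WT, 14812 and 14718 in young KO and 12827 and 16271 in old KO, with young KO above young WT (0.28 ± 0.10, adjusted p = 0.268). Abca8a was at 181 and 135 in young WT, 214 and 208 in old WT, 98.3 and 97.7 in young KO and 192 and 118 in old KO. Its difference with age in KO was 0.65 ± 0.18 (adjusted p = 0.167). Without old KO mouse 2 that difference was 0.98 and was called (adjusted p = 0.00269). Cluster 8, the one with more Abca8a, made up 38.8% and 35.1% of these cells in the young KO mice and 47.7% and 39.9% in the old KO mice, and its part in the difference was not tested. Fabp7 lay between 14590 and 18457 in all 8 mice.

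The 8 members tested there gave 0 calls in WT ageing (2.02% of all 10084 genes), KO ageing (0.278%), genotype in the young (0.575%), genotype in the old (0.387%) and the difference in ageing (0%). Between 2 and 4 of the 8 had an unadjusted p under 0.05 in each, and DESeq2 called none. Without the filter on low counts the genotype comparison in the young called 3, Apoe, Apod and Abca8a. Of 30 other lipid transport genes, WT ageing called 2, both higher in old WT: Srebf1 (227 ± 6.40 to 342 ± 4.16 CPM, mean ± SD, n = 2 mice; 0.56 ± 0.12, adjusted p = 0.0283) and Abca5 (170 ± 43.6 to 264 ± 4.55; 0.61 ± 0.15, adjusted p = 0.0400). The other comparisons called none.

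Activated NSC-like cells had at least 20 cells a mouse in 3 groups. Apoe was at 523 and 794 in young WT, 641 and 399 in young KO and 1371 and 1388 in old KO. The old KO mice lay above all the others, with a log2 difference to young KO of 1.42 ± 0.22 (adjusted p = 0.002 by edgeR), and the call held when any of the 4 KO mice was left out, with adjusted p between 3.4e-09 and 0.0445. Summed astroglial markers were also higher in these cells in old KO, at 5563 and 7423 CPM against 3754 and 3383 in young KO, and their part in the difference was not tested. Apoe was the only 1 of 5 members called in KO ageing, against 0.873% of all 5727 genes. None was called for genotype in the young (0.21% of all genes), none had an unadjusted p under 0.05 there and DESeq2 called none. Acsl3 was the only 1 of 11 other lipid transport genes called, higher in old KO (1.08 ± 0.21, adjusted p = 0.011). At the level of the libraries, the WT pair had 311 (young) and 922 (old), from 72 cells in old WT.

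Microglia-like cells could be tested for genotype in young mice only, where 5 members passed the filter and none was called (0.573% of all 4540 genes). One member, Apoe, had an unadjusted p under 0.05, and DESeq2 called none. Apoe was at 15.3 and 305 in the young WT mice and at 76.1 and 179 in the young KO mice, so that the 2 WT mice lay on either side of both KO mice. Without young WT mouse 1 (30 cells) the difference was -1.15 and was called (adjusted p = 0.0248). No free RNA share could be set for these cells. Abcg1 was at 421 and 321 in WT and 477 and 392 in young KO, and Abca1 at 199 and 217 against 194 and 163. The 11 other lipid transport genes tested gave no call.

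In neuroblast-like cells 7 members were tested, most of them at low levels. Fabp5 was between 911 and 1322 in the 8 mice and was not called in any comparison. Apod was called for ageing in WT (2.04 ± 0.61, adjusted p = 0.0373 by edgeR) on 9 and 17 UMIs. The call was lost without any 1 of the 4 WT mice (adjusted p between 0.146 and 0.181) and without the filter on low counts (adjusted p = 0.0627). The free RNA share predicted for the library sums was above their measured Apod, so how much these cells held could not be told. The calls were 1 in WT ageing (3.54% of all 6751 genes) and 0 in KO ageing (0.37%), genotype in the young (1.63%), genotype in the old (0.148%) and the difference in ageing (0.504%). The comparisons with 0 calls had 1, 6, 0 and 1 members at an unadjusted p under 0.05, and DESeq2 called none. Of 11 other lipid transport genes tested, none was called. Endothelial-like cells had too few cells per mouse for a comparison.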

How the data were processed

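Single-cell RNA of 4 groups (2 male mice each, pooled in 1 reaction with 4 hashtags) had been sorted as eYFP+ or GLAST+ cells from the vSVZ and as eYFP+ or eYFP-/PSANCAM low cells from RoB, with CD45+, Ter119+ and O4+ cells excluded. The deposited matrix holds UMI counts, not normalized, which the authors made with kallisto and bustools on GRCm38, and separate tables hold hashtag counts. Cells with 100 to 6000 genes, 1000 to 20000 UMIs and at most 10% mitochondrial UMIs were kept, doublets were removed with Scrublet (in Scanpy 1.11.5), and a multinomial mixture called hashtags. Leiden clusters (resolution 1, without the members, the lipid transport list, interferon genes, mitochondrial genes and transgenes) were named from marker lists. A cluster nearest to the astroglial markers with at least 25% eYFP+ cells was kept as a class of its own, a rule chosen after seeing the data. UMIs were summed per mouse (at least 20 cells) and tested with edgeR 4.0.16 (filterByExpr, TMM, quasi-likelihood test, Benjamini-Hochberg, adjusted p under 0.05) on the 4 groups, or with mouse as a block between tissues. The named genes were the 9 members, at most 6 called genes of the list in each comparison, and 3 genes most like each member. DESeq2 1.42.0 was an alternative, and scripts were tested on simulated data. There, 200 genes were changed by 1 log2 unit in the astroglial, Thbs4/Ecel1-rich and ensheathing glia-like fits. Age and genotype comparisons recovered 28.5% to 62.5% of them, and the difference in ageing 11.5% to 18%. The comparison of tissues recovered 93%. Within groups, a change of this size could therefore often go without a call. Members and lists were chosen with earlier results of these data known. Intervals cover counting error only. The sample that the labels put in no group was not used. Some genes that the naming rule would include are not reported here.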

Additional observations from a re-analysis of the deposited data

Results flagged for a closer look

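In 4 cases the change with age was flagged as running differently in WT and KO mice. In RoB astroglia, Fabp7 fell in WT and not in KO, and the log2 difference between these changes was 1.14 ± 0.20 (adjusted p = 0.000846 by edgeR), which was not called without young WT mouse 1. In the other 3 cases both old mice lay on one side of both young mice in WT and on the opposite side in KO, and the difference of the changes was tested and not called. The share of all genes whose mice lay this way was not counted, so the 3 cases are only described. These were Fabp7 in vSVZ astroglia (0.59 ± 0.17, adjusted p = 0.162), Fabp7 in the Thbs4/Ecel1-rich cluster (0.82 ± 0.25, adjusted p = 0.348) and Apoe in neuroblast-like cells (-1.64 ± 0.65, adjusted p = 0.347). For Fabp7 in vSVZ astroglia, WT mice had 238 and 234 CPM when young and 192 and 230 when old. In neuroblast-like cells the mice had 10.8 to 48.6 CPM of Apoe. With the free RNA share subtracted and results under 0 set to 0, Apoe was at 0 in the old WT and young KO libraries.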

How the results depend on the processing

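Among the 19 calls of single members, each was kept with relative log expression scaling, at Leiden resolution 2 and with predicted doublets kept, and none reversed under any alternative run. Counts of called members moved by more than 1.5 times as follows, with the count as reported in brackets. Smaller moves are listed only for KO ageing in vSVZ astroglia. In vSVZ astroglia, WT ageing (2) went to 1 by DESeq2 and to 0 with the strict hashtag call or in cluster 1 alone, and KO ageing (4) to 2 by DESeq2, 0 with the strict call and 2 in cluster 1, while it was 6 without the filter (with Apoe and Fabp7 added), 5 at Leiden resolution 2 and 3 with the Thbs4/Ecel1-rich cluster added. Genotype in the young (0) went to 1 without the filter or at Leiden resolution 2, and genotype in the old (1) to 0 with the strict call or in cluster 1. With the Thbs4/Ecel1-rich cluster added, WT ageing gave 5 (Apoe, Apod, Abca1, Abcg1 and Fabp7), so that Clu lost its call, genotype in the young 2 and the difference in ageing 3 (from 0). In RoB astroglia, genotype in the young (2) went to 1 by DESeq2 or in cluster 12, and the difference in ageing (1) to 0 in cluster 12. In the Thbs4/Ecel1-rich cluster, WT ageing (0) went to 1 without the filter, KO ageing (0) to 1 with relative log expression scaling, DESeq2, no filter, the strict call, Leiden resolution 0.5 or doublets kept, genotype in the young (1) to 0 by DESeq2 or with the strict call, and genotype in the old (0) to 1 without the filter or at Leiden resolution 2. In ensheathing glia-like cells, KO ageing (0) went to 2 without the filter and to 1 with the strict call or doublets kept, genotype in the young (0) to 3 and genotype in the old (0) to 1 without the filter. In microglia-like cells genotype in the young (0) went to 1 with doublets kept. In neuroblast-like cells WT ageing (1) went to 0 by DESeq2 or without the filter and to 2 at Leiden resolution 2. Between tissues, 5 calls went to 3 with the strict call and 2 (Clu and Fabp7) with the Thbs4/Ecel1-rich cluster added. The causes were not tested.

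Leaving out each mouse in turn gave ranges of 0 to 1 (WT ageing), 1 to 5 (KO ageing), 0 to 1 (genotype in the young) and 0 to 1 (genotype in the old) in vSVZ astroglia, 0 to 2 (genotype in the young) and 0 to 1 (difference in ageing) in RoB astroglia, 0 to 1 for each genotype comparison in the Thbs4/Ecel1-rich cluster, 0 to 2 in ensheathing glia-like cells for KO ageing and genotype in the old, 0 to 1 in microglia-like cells, 0 to 1 in neuroblast-like cells for WT ageing, 1 to 3 in activated NSC-like cells for KO ageing and 3 to 5 between tissues. The strict call kept 2909 of 5815 hashtagged cells. Leaving out the eYFP-rich quiescent cluster was already the main setting, so the reverse was added after seeing the data, as were the fits to 1 cluster.

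No paired analysis was possible because the groups hold different mice that share only a hashtag number, and same-numbered mice deviated with correlations of -0.0692 to 0.0433. Between tissues, where mouse was the block, no replicate block gave 4 calls, with log2 differences of 0.58 (Clu), 0.29 (Abca1), 0.40 (Fabp5), -1.94 (Abcg1) and -1.68 (Fabp7). Of 81 levels, 15 moved by more than their spread when free RNA was subtracted. For Lpl in astroglia a count of 0 allows up to 0.0867 CPM, and Abcg1 in vSVZ astroglia rested on 1 to 40 UMIs a group.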
